A study of Mus musculus with 4 samples.

Results

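The genes described here are 8 genes of endothelial adhesion and activation, Selp, Sele, Vcam1, Icam1, Icam2, Vwf, Ackr1 and Esm1, out of 32245 gene symbols counted in single cells of mouse gingiva, the gum around the teeth. They were taken as a fixed list by symbol, and all 8 were found in the matrices of all 4 libraries. The groups were diseased gingiva with metformin (disease plus metformin), diseased gingiva (disease), gingiva with metformin and no disease (metformin) and healthy gingiva (healthy), with 1 library in each. Metformin is a glucose-lowering drug, and the study asked about its effect on the gingiva in the prevention of periodontal disease. Gum tissue of the upper jaw was cut out and digested with collagenase, and droplet libraries of single cells were made. The sources used here do not state the strain, age or number of mice, nor how the disease arose or how much metformin was given.

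Leukocytes leave the blood mainly through venules, small veins whose lining cells catch passing cells, slow them, and let them through. Selectins on the endothelium let leukocytes roll, immunoglobulin-family adhesion molecules bind their integrins and hold them, and chemokines displayed on the vessel wall arrest them. Inflammatory cytokines are known to raise several of these genes, while resting endothelium carries little of them. In the gingiva, which meets bacteria all the time, this traffic is part of normal defence and is increased in periodontal disease.

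Selp encodes P-selectin, which endothelial cells store in Weibel-Palade bodies together with the protein encoded by Vwf, von Willebrand factor, a large protein that binds platelets. Sele encodes E-selectin, made after cytokine stimulation. Vcam1 and Icam1 encode ligands of leukocyte integrins, and Icam2 encodes a related ligand that resting endothelium already carries. Ackr1 encodes an atypical chemokine receptor that moves and displays chemokines without signalling through G proteins, and it marks venules. Esm1 encodes endocan, a secreted proteoglycan made by sprouting (tip) endothelial cells.

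The Sele and Selp genes are neighbours on chromosome 1 of GRCm38, on the same strand, with 67030 bases between their starts. Sele lies at chr1:164048234-164057677 and Selp at chr1:164115264-164150026. Ackr1 is on the same chromosome, at chr1:173331886-173333750 on the minus strand, where it overlaps Cadm3 on the same strand, so counts of these genes are uncertain. Selp, Vcam1, Icam1 and Esm1 overlap annotated genes on the opposite strand, and Sele, Icam2 and Vwf overlap none. The promoters of Selp and Sele, 250 bases before to 50 after the start in RefSeq on GRCm38.p6, are printed because the 2 genes were often found in the same cells. Capitals mark matches to the AP-1 motif, TGANTCA, searched on both strands, and to the TATA box, TATAAA, searched on the gene's strand.
Selp, chr1:164115014-164115313, plus strand: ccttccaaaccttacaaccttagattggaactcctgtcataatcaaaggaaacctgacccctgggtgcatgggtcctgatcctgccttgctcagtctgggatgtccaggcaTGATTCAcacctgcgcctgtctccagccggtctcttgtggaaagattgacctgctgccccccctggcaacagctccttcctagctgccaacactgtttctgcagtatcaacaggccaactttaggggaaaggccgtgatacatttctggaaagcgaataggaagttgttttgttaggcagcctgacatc
Sele, chr1:164047984-164048283, plus strand: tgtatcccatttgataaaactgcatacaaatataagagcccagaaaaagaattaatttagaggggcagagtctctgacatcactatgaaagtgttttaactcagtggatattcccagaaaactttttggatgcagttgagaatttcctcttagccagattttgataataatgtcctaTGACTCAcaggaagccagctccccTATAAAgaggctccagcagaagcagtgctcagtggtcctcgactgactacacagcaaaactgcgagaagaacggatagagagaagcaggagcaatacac
Each promoter held 1 AP-1 match, at -139 from the start in Selp and at -73 in Sele, and 7.81% of the 32851 RefSeq mouse promoters of this length held at least 1. Sele also held a TATA box at -49, which 8.32% of promoters held. The NF-kB consensus motif, GGGRNNYYCC, searched on both strands, had 0 exact matches in these 2 windows and in those of Ackr1, Icam1 and Esm1. Of all promoters, 8.46% held at least 1. Sites that differ from these letters were not counted, so 0 matches does not show that a promoter lacks an NF-kB site. Matches are descriptions of letters in a window and show no binding.

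The 4 libraries held 12507787 to 22333858 UMIs (unique molecular identifiers, which tag single RNA molecules), and 7134 of 8295 barcodes passed the filters. Endothelial-like cells, named from 20 vascular markers that include none of the 8 genes, numbered 246 of the 7134 cells. They made up 29 of 1657 cells in disease plus metformin (1.75%), 108 of 1693 in disease (6.38%), 64 of 2477 in metformin (2.58%) and 45 of 1307 in healthy gingiva (3.44%). All 20 markers were found in the endothelial-like cells of every library. They fell into 2 clusters, 1 of 110 cells with a median of 745 UMIs and 1 of 136 cells with a median of 3060.5. RNA of other cells was present in these barcodes in unequal amounts. Salivary gland markers summed to 10486 CPM (UMIs per 1000000 UMIs of the class and library) in disease plus metformin, 986 in disease, 1261 in metformin and 3361 in healthy endothelial-like cells, and keratinocyte markers to 111, 630, 3692 and 5683 CPM. In disease plus metformin, 1 barcode held 590 of the 852 gland-marker UMIs. In metformin, 1 barcode held 704 keratinocyte-marker UMIs among its 42554 UMIs. The part of RNA of other cells in the results below was not tested, except where a value is given. Of the 7130 barcode sequences among kept cells, 4 occurred in more than 1 library, and none of those was endothelial-like.

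The 8 genes differed in how closely they kept to the endothelium. Sele had 99% of its 100 UMIs in endothelial-like cells, Icam2 92.6%, Esm1 86.6%, Ackr1 83.7% and Selp 79.7%. Icam1 and Vcam1 had 18% and 17.6%, and Vwf had 5.79%. At least 1 of the 8 genes was found in all but 83 of the 246 endothelial-like cells, and in all but 6008 of the 6888 other cells. In keratinocyte-like cells, an epithelium that should lack most of these genes, 0.0277% of 3604 cells held a Sele, Icam2 or Esm1 UMI, 0.111% a Selp, 0.166% an Ackr1, 0.194% a Vcam1, 0.555% a Vwf and 1.11% an Icam1 UMI. The median depth was 1614.5 UMIs there and 1390.5 in endothelial-like cells, where the shares of cells were 9.35% for Sele, 35% for Icam2, 9.35% for Esm1, 9.35% for Selp, 21.1% for Ackr1, 10.2% for Vcam1, 15.0% for Vwf and 15.4% for Icam1.

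**Figure D1:**
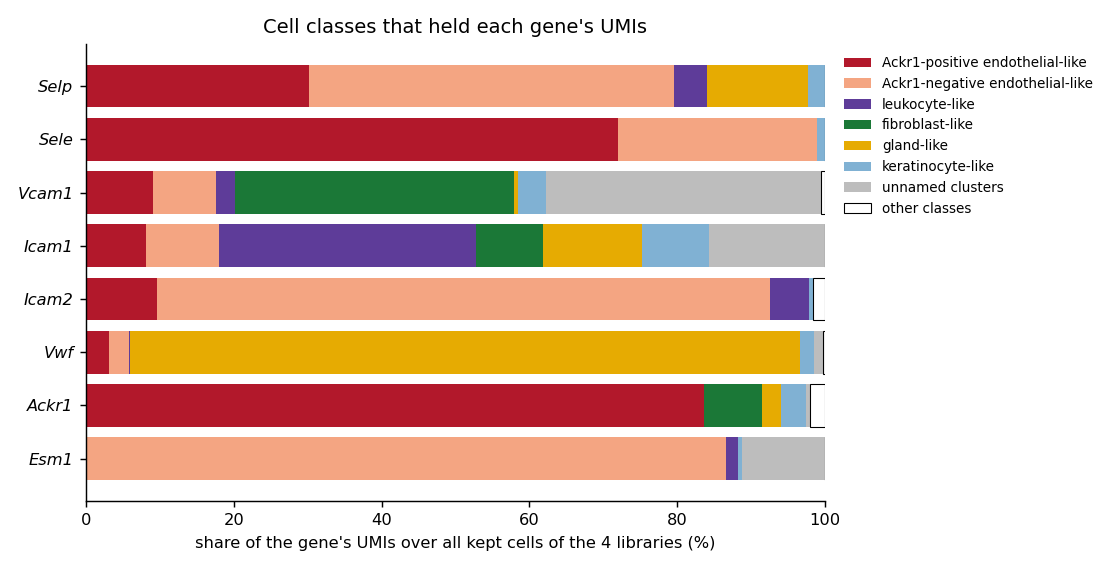
Share of each gene's UMIs (horizontal axis, percent, all kept cells of the 4 libraries together) held by each cell class. Sele, Icam2, Ackr1, Esm1 and Selp lay mainly in endothelial-like barcodes, Icam1 and Vcam1 were spread over several classes, and 90.7% of Vwf UMIs were in gland-like cells.

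Within the endothelium, levels of the 8 genes differed by library as follows. Each level is the CPM of the UMIs summed over the endothelial-like cells of a library, with an exact Poisson 95% interval in brackets that covers counting error only. With 1 library per group, no test between groups was possible, and a treatment or disease state cannot be told apart from its library. At this depth a count of 0 allows up to 3 UMIs, which is 36.9 CPM in disease plus metformin, 13 in disease, 12.4 in metformin and 23.8 in healthy cells.

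Selp was at 49.2 CPM (13.4 to 126) in disease plus metformin, 482 (397 to 581) in disease, 112 (73.6 to 162) in metformin and 23.8 (4.90 to 69.5) in healthy cells, from 4, 111, 27 and 3 UMIs. Disease stood highest, metformin came next, and the interval of disease plus metformin overlapped those of metformin and healthy. A single disease barcode held 78 of the 111 UMIs. That barcode had 3767 UMIs in all, of which 42 were vascular endothelial and 0 were platelet markers, and it also carried 12 Sele, 6 Icam1 and 5 Vwf UMIs. In the metformin library, 1 barcode held 18 of the 27 Selp UMIs. By share of cells, Selp was found in 10.3% of 29, 11.1% of 108, 9.38% of 64 and 4.44% of 45 endothelial-like cells of disease plus metformin, disease, metformin and healthy gingiva, whose median depths were 2210, 1095, 1606 and 1372 UMIs. With each cell thinned to 1000 UMIs and shallower cells left out, Selp was found in 0 of 20, 8 of 59, 1 of 38 and 1 of 27 cells of those libraries.

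Sele was at 49.2 CPM (13.4 to 126) in disease plus metformin, 178 (128 to 242) in disease, 223 (168 to 291) in metformin and 0 in healthy cells, from 4, 41, 54 and 0 UMIs. It was found in 2, 14, 7 and 0 cells of those libraries. By CPM, disease and metformin were close together and above the other libraries. Healthy cells had no Sele UMI, which allows up to 23.8 CPM. Single barcodes held 3 of the 4 UMIs in disease plus metformin, 12 of the 41 in disease and 25 of the 54 in metformin. With cells thinned as for Selp, Sele was found in 2 of 20 disease plus metformin and 0 of 27 healthy cells. The counts were 7 of 59 in disease and 3 of 38 in metformin. By this share, disease plus metformin (10%) lay between disease (11.9%) and metformin (7.89%), with overlapping intervals.

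Vcam1 was at 36.9 CPM (7.61 to 108) in disease plus metformin, 65.2 (36.5 to 107) in disease, 62 (34.7 to 102) in metformin and 0 in healthy cells, from 3, 15, 15 and 0 UMIs. The disease plus metformin, disease and metformin intervals overlapped, and the 23.8 CPM that a count of 0 allows in healthy cells lay below the intervals of disease and metformin. No barcode held more than 2 Vcam1 UMIs.

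Icam1 was at 135 CPM (67.6 to 242) in disease plus metformin, 182 (132 to 247) in disease, 124 (83.7 to 177) in metformin and 63.4 (27.4 to 125) in healthy cells. The order was disease, disease plus metformin, metformin and healthy, and the intervals overlapped except for those of disease and healthy. Icam2 was at 345 CPM (229 to 498) in disease plus metformin, 361 (287 to 447) in disease, 145 (101 to 201) in metformin and 230 (154 to 330) in healthy cells. Icam2 was the member found in the largest share of endothelial-like cells in every library, from 32.8% of metformin to 41.4% of disease plus metformin cells, and it was lowest in the metformin library.

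Vwf was at 123 CPM (59 to 226) in disease plus metformin, 182 (132 to 247) in disease, 149 (104 to 206) in metformin and 23.8 (4.90 to 69.5) in healthy endothelial-like cells, from 10, 42, 36 and 3 UMIs. Healthy cells stood below disease and metformin, with an interval that overlapped that of disease plus metformin. Gland-like cells also carried Vwf, and of the endothelial-like cells with a Vwf UMI, 4 of 4, 14 of 18, 8 of 12 and 3 of 3 also held a gland-marker UMI in disease plus metformin, disease, metformin and healthy gingiva. Cells with a Vwf UMI were deeper, with a median of 4118 UMIs against 1090 in those without. The share of all endothelial-like cells with a gland-marker UMI is not given here. At the ratio of Vwf to gland-marker UMIs in gland-like cells, their gland-marker UMIs would go with 0.46, 0.097, 0.16 and 0.16 Vwf UMIs in those libraries. The part of gland RNA in these Vwf counts was not tested.

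Ackr1 was at 468 CPM (331 to 642) in disease plus metformin, 261 (199 to 336) in disease, 219 (164 to 287) in metformin and 143 (84.6 to 225) in healthy cells, from 38, 60, 53 and 18 UMIs. The library order was thus unlike that of the selectins, with disease plus metformin at the top. However, 25 of its 38 UMIs came from 1 barcode, which also held 590 gland-marker UMIs among 5878. Cells with an Ackr1 UMI made up 24.1% of disease plus metformin, 20.4% of disease, 25% of metformin and 15.6% of healthy endothelial-like cells, with overlapping exact binomial intervals.

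Esm1 was at 12.3 CPM (0.312 to 68.6) in disease plus metformin, 65.2 (36.5 to 107) in disease, 542 (453 to 643) in metformin and 63.4 (27.4 to 125) in healthy cells, from 1, 15, 131 and 8 UMIs. Metformin stood apart, and the other libraries overlapped. The metformin UMIs came from 12 of 64 cells, and the barcode with most held 36 of 131 along with 704 keratinocyte-marker UMIs among 42554.

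**Figure D2:**
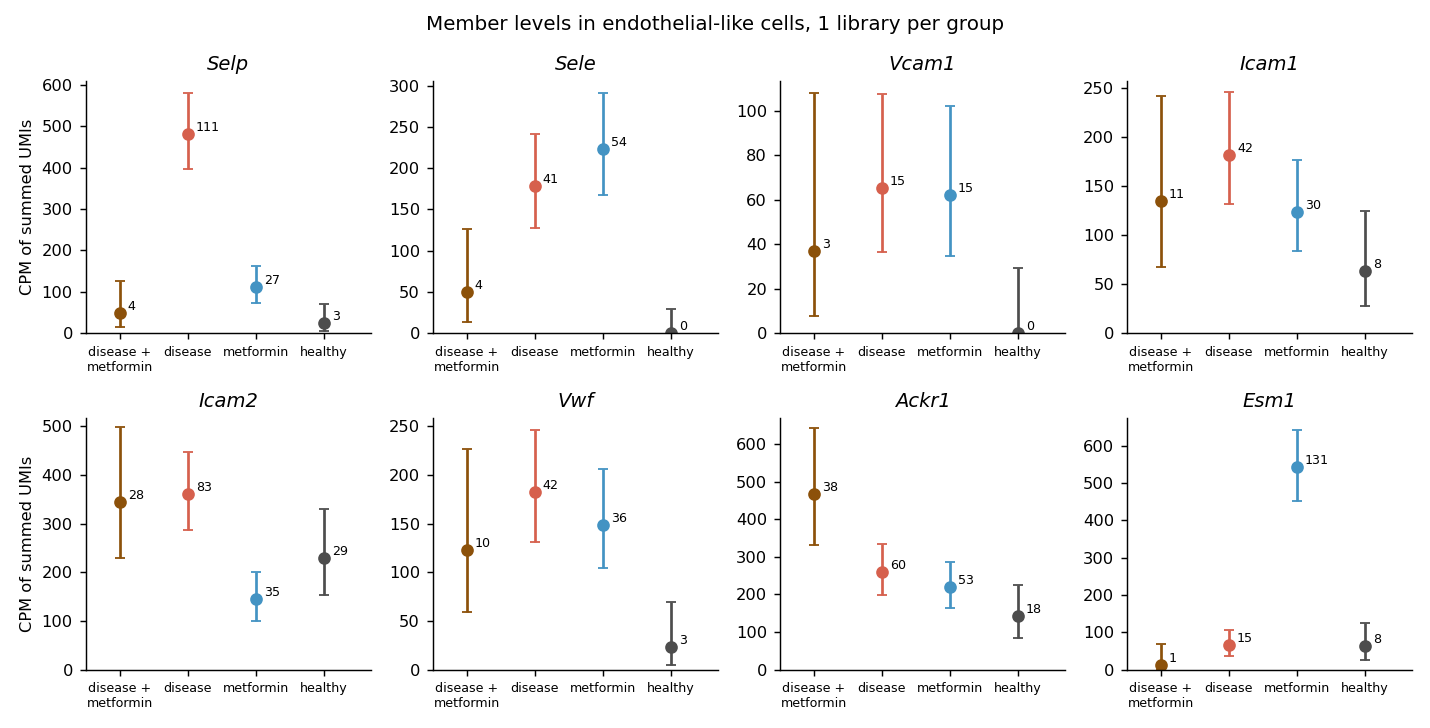
Level of each gene (vertical axis, CPM of summed UMIs, a scale of its own in each panel) in the endothelial-like cells of the 4 libraries, with exact Poisson 95% intervals as bars (at a count of 0, the bar ends at the upper Poisson bound) and the UMI count beside each point. Selp was highest in disease (482 CPM), Esm1 in metformin (542 CPM), and Sele and Vcam1 had no UMI in healthy cells.

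Disease was first set against healthy gingiva, both without the drug. In endothelial-like cells, 6 of the 7 genes with enough UMIs were at least 1.5-fold higher in disease, and none was 1.5-fold lower. Of all 3258 measured genes (at least 20 UMIs over the 2 libraries), 16.8% were at least 1.5-fold higher and 19.5% at least 1.5-fold lower, and the median log2 ratio was 1.52 over the 7 genes and -0.0051 over all genes. Selp, Sele, Vwf, Icam1 and Ackr1 met that minimum through the disease library, with 3, 0, 3, 8 and 18 UMIs in healthy cells. The count of 6 is thus a description and no independent support for a rise. Selp had a log2 ratio of 4.34 (95% interval 2.76 to 6.64), Vwf of 2.94 (1.29 to 5.27) and Icam1 of 1.52 (0.42 to 2.83). Sele, with 41 against 0 UMIs, was 7.49-fold higher at the floor of 3 UMIs, with a lower limit of 2.54 on the log2 ratio. The ratios of Ackr1, 0.87 (0.09 to 1.72), and Icam2, 0.65 (0.02 to 1.31), were smaller. Esm1 was at 65.2 and 63.4 CPM, with a log2 ratio of 0.04 (-1.29 to 1.48). Vcam1, with 15 against 0 UMIs, was below the minimum. Selp was at 572 CPM in disease and 510 in healthy barcodes that held an Ackr1 UMI. The log2 ratio there was 0.16 (-1.58 to 2.55). In barcodes without an Ackr1 UMI, Selp had 90 against 0 UMIs, and 1 disease barcode held 78 of the 90. Barcodes with an Ackr1 UMI held 36731 UMIs in disease and 5882 in healthy cells. The part of this make-up in the pooled ratios was not tested. Weighting every cell equally, the log2 ratio of Selp was 2.44, of Vwf 1.60, of Icam2 -0.25 and of Ackr1 -0.16. Without likely doublets, Icam2 was at -0.04, and among barcodes with Malat1 and mitochondrial RNA, Ackr1 was at 4.12. Icam1 was at 2.99 without the lymphatic sub-cluster, an alternative chosen after seeing the data, and at 3.48 with cells weighted equally.

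Other vascular genes were compared by list between disease and healthy endothelial-like cells. Of 11 measured venular genes, 6 were at least 1.5-fold higher and 1 lower, among them Il6st, the shared receptor of interleukin-6-type cytokines, at 513 and 222 CPM, and Tmem252 at 117 and 15.9 CPM. Capillary genes were mixed, with 2 of 11 higher and 2 lower. Sparcl1 was at 1581 and 864 CPM, and Car4, the capillary carbonic anhydrase, at 52.1 and 174 CPM. Of 5 measured Weibel-Palade body and haemostasis genes, 2 were higher, Edn1 (endothelin) at 265 and 127 CPM and Procr (the protein C receptor) at 91.2 and 23.8 CPM, and 1 was lower, Cd63, at 56.5 and 206 CPM. Of 6 arterial genes 3 were higher and 1 lower, led by Mgp, an inhibitor of calcification, at 721 and 143 CPM. Of 7 sprouting genes 2 were higher and 1 lower, of 14 transcription factors 2 higher and 1 lower, and of 10 transmigration and junction genes 1 higher (Plvap, 686 and 404 CPM) and 1 lower (Cd47, 282 and 476 CPM). None of 3 leukocyte counter-receptor genes passed 1.5-fold. Of 6 inflammatory response genes, 2 were higher, among them Il1r1, the interleukin-1 receptor, at 143 and 63.4 CPM. The 1 that was lower was Nfkb1, at 47.8 and 119 CPM. The lymphatic markers summed to 1959 CPM in disease and 5366 in healthy cells, and their part in these differences was not tested.

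The disease plus metformin library was set against the disease library, which differ in the drug. Both selectins were at least 1.5-fold lower, Ackr1 was at least 1.5-fold higher, and Vwf, Icam1 and Icam2 had intervals that held 0. Of 6 measured members, 1 was at least 1.5-fold higher and 2 were lower, where 15.6% and 18.2% of all 2828 measured genes were. The 2 lower members, Selp and Sele, met the minimum through the disease library, so their count is a description. Selp had a log2 ratio of -3.29 (-5.19 to -1.90) and Sele of -1.86 (-3.80 to -0.39). Leaving out the barcode with most UMIs of the gene in each library, these were -2.52 and -3.30, and members at least 1.5-fold lower numbered 4. Vwf, at -0.57 (-1.73 to 0.45), Icam1, at -0.43 (-1.54 to 0.55), and Icam2, at -0.07 (-0.74 to 0.57), had intervals that held 0. Ackr1 was at 0.84 (0.22 to 1.45), and at -0.34 without the top barcodes. Vcam1 and Esm1 had fewer than 20 UMIs over the 2 libraries. The 29 endothelial-like cells of disease plus metformin held 81249 UMIs, so these values rest on few cells. Of these cells 34.5% held no mitochondrial UMI, against 4.63% of disease cells, at median depths of 2210 and 1095 UMIs. The part of RNA quality and depth in the differences was not tested.

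Among other genes in this comparison, 6 of 10 measured venular genes were lower and none higher, among them Il6st at 222 CPM in disease plus metformin and 513 in disease, and Nr2f2, a transcription factor of venous and lymphatic identity, at 49.2 and 139 CPM. Nr2f2 was highest, at 506 CPM, in the sub-cluster of endothelial-like cells that raised the lymphatic markers, which summed to 603 CPM in disease plus metformin and 1959 in disease cells. Their part in the Nr2f2 difference was not tested. Of 9 capillary genes, 1 was higher (Rgcc, 751 and 356 CPM) and 2 lower, among them Lpl, lipoprotein lipase, at 123 and 261 CPM. Of 7 arterial genes 2 were higher and 0 lower, with Fbln5, an elastic fibre protein, at 185 and 34.7 CPM. Of 6 sprouting genes 2 were higher and 1 lower, of 5 Weibel-Palade and haemostasis genes 2 higher and 1 lower, and of 6 inflammatory response genes 1 higher and 2 lower. Of 10 junction genes 0 were higher and 1 lower, of 14 transcription factors 1 was higher and 3 lower, and of 3 counter-receptor genes 0 were higher or lower.

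The metformin library was then set against the healthy library, both without disease. This comparison shares the healthy library with the first comparison, so a low healthy value raises both. Of 7 measured members, 6 were at least 1.5-fold higher and 1 lower, against 17.6% and 20.5% of 3408 measured genes. Selp, Sele, Vwf, Icam1, Ackr1 and Esm1 met the minimum through the metformin library, so the count of 6 is a description. Esm1 had the largest log2 ratio that did not use the floor, 3.09 (2.07 to 4.34). It was 2.47 without likely doublets and 3.85 without the barcode with most Esm1 UMIs in each library. Vwf was at 2.65 (0.98 to 4.99) and Selp at 2.23 (0.53 to 4.60). Sele, with 54 against 0 UMIs, was 9.39-fold higher at the floor of 3 UMIs, with a lower limit of 2.88 on the log2 ratio. Icam1, at 0.97 (-0.19 to 2.30), Ackr1, at 0.62 (-0.18 to 1.48), and Icam2, at -0.67 (-1.42 to 0.09), had intervals that held 0. Weighting cells equally, Selp was at 0.98, Vwf at 1.05 and Ackr1 at -0.11. Without the top barcodes, Selp had fewer than 20 UMIs in this pair of libraries. In barcodes that held an Ackr1 UMI, Selp was at 0.35 (-1.35 to 2.72). Sele there had 53 against 0 UMIs, 2.50-fold higher at the floor of 3 UMIs, with a lower limit of 0.97 on the log2 ratio.

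In the same comparison the other lists can be read against the 17.6% of all genes that were higher and the 20.5% that were lower. Of 8 venular genes, 2 were higher and 1 lower, with Plvap, the diaphragm protein of fenestrated endothelium, at 934 CPM in metformin and 404 in healthy cells and Nr2f2 at 74.4 and 206 CPM. Of 12 capillary genes 0 were higher and 3 lower, among them Gpihbp1, which holds lipoprotein lipase on capillaries, at 219 and 373 CPM. Of 6 sprouting genes, the list Esm1 is nearest to in function, 2 were higher, Col4a1 at 1017 and 634 CPM and Col4a2 at 575 and 349 CPM, and 1 was lower, Flt4, at 74.4 and 214 CPM. Of 10 junction genes 1 was higher and 1 lower (Cldn5, 136 and 484 CPM), of 7 Weibel-Palade and haemostasis genes 2 higher and 3 lower, and of 5 arterial genes 2 higher and 1 lower. Of 13 transcription factors 0 were higher and 4 lower, of 6 inflammatory response genes 0 higher and 1 lower, and of 3 counter-receptor genes 0 were higher or lower. The lymphatic markers, which include Flt4, summed to 2026 CPM in metformin and 5366 in healthy cells, and Nr2f2 was highest in the lymphatic sub-cluster. Their part in the lower Nr2f2 and Flt4 values was not tested.

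The disease plus metformin library was also set against the metformin library, both with the drug. Of 7 measured members, 2 were at least 1.5-fold higher and 3 lower, where 15.7% and 19.9% of 2950 measured genes were. The 3 lower members, Esm1, Sele and Selp, met the minimum through the metformin library, so their count is a description. Esm1 had a log2 ratio of -5.46 (-10.8 to -2.96), from 1 against 131 UMIs and at -3.63 without likely doublets, and Sele of -2.18 (-4.11 to -0.74). Selp was at -1.18 (-3.16 to 0.34). Icam2 was at 1.25 (0.48 to 2.01) and Ackr1 at 1.09 (0.45 to 1.72). Without the top barcodes, Ackr1 was at 0.08. Vwf (-0.27) and Icam1 (0.13) were near 0. In this pair of libraries, 5 of 6 measured arterial genes were higher and 1 lower, with Mgp at 923 CPM in disease plus metformin and 273 in metformin cells. Of 11 capillary genes 2 were higher and 4 lower, of 9 venular genes 1 higher and 3 lower, of 13 transcription factors 4 higher and 1 lower, and of 6 Weibel-Palade and haemostasis genes 3 higher and 1 lower. Of 10 junction genes 1 was higher and 2 lower, of 6 sprouting genes 0 higher and 1 lower, of 7 inflammatory response genes 0 higher and 1 lower, and of 3 counter-receptor genes 0 were higher or lower.

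**Figure D3:**
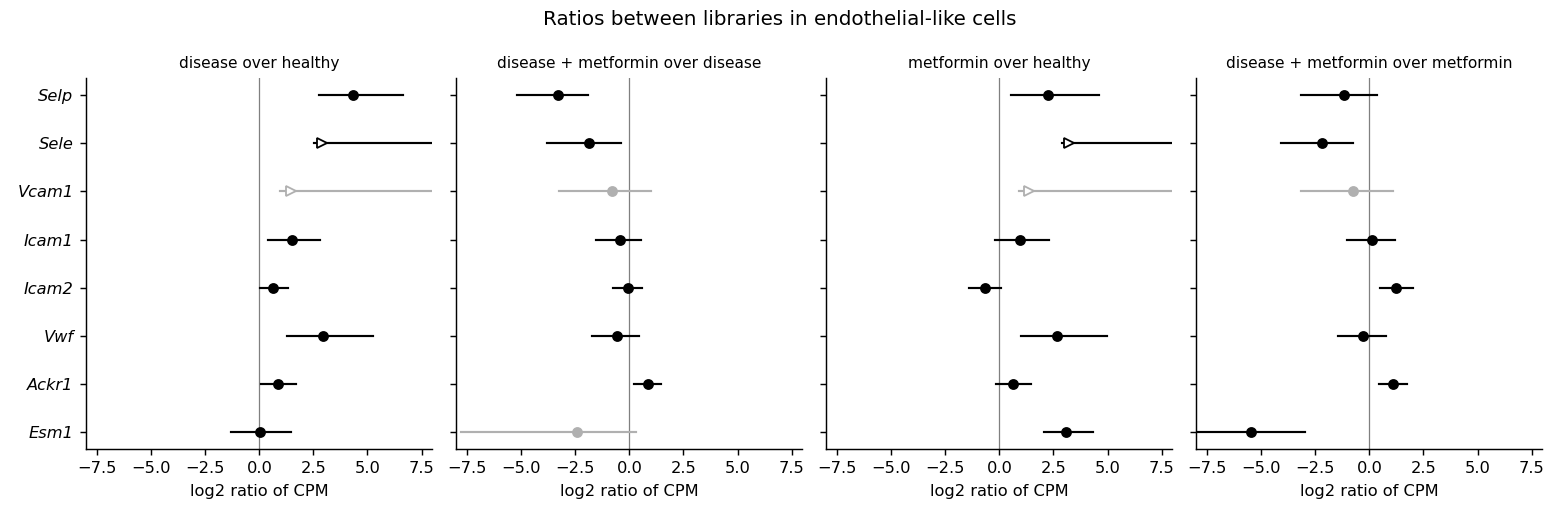
Log2 ratio of CPM (horizontal axis) of each gene in endothelial-like cells for the 4 comparisons, with conditional exact binomial 95% intervals as lines. Open triangles mark ratios against a count of 0, grey marks are genes with under 20 UMIs over the 2 libraries, and lines are cut at the axis limits. Selp and Sele lay right of 0 in both comparisons with healthy gingiva and left of 0 in both comparisons of disease plus metformin, where the Selp interval against metformin held 0.

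Venular and other endothelium were compared within each library, by summing endothelial-like barcodes with at least 1 Ackr1 UMI and those with none. The Ackr1-positive barcodes numbered 7, 22, 16 and 7 in disease plus metformin, disease, metformin and healthy gingiva, 52 in all, and the Ackr1-negative ones 22, 86, 48 and 38. The 4 libraries served as replicates of this contrast, with the library as a block. Since they differ in condition and nothing says how many mice each holds, the p-values measure the spread between these libraries. A negative barcode may be a venular cell whose Ackr1 RNA was missed. The positive barcodes were shallower, with a median of 908 UMIs against 1723.5 in negative ones, and 36.5% of them held no mitochondrial UMI, against 12.4%. In the healthy library's positive barcodes 9 of 20 vascular markers were found, against 19 or 20 in the other libraries. Gland markers summed to 40995 CPM in the disease plus metformin positive barcodes, where 1 barcode held 590 gland-marker UMIs. The part of depth and RNA quality in the differences was not tested beyond the alternatives given.

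Capillary genes were lower in the Ackr1-positive sums, with 6 of 7 passing the test, and no member passed it among the genes kept by the filter on low counts. Of 807 genes tested besides Ackr1 with edgeR's quasi-likelihood test, 37 (4.58%) were higher and 40 (4.96%) lower at an adjusted p below 0.05. Only Selp and Icam2 of the 7 members passed the filter on low counts. Selp was at 271, 572, 650 and 510 CPM in the Ackr1-positive barcodes of disease plus metformin, disease, metformin and healthy gingiva, and at 0, 465, 0 and 0 CPM in the Ackr1-negative ones. It was higher in 4 of 4 libraries, with a log2 fold of 2.98 (SE 0.95, edgeR adjusted p = 0.0602), which misses the threshold. Selp met the filter through the Ackr1-positive sums, where it was high, so its direction over the libraries is a description. The 465 CPM of the disease negative sum is 90 UMIs, of which 78 are the single barcode described above. Without the disease library the edgeR adjusted p of Selp was 0.00202, and without the disease plus metformin library 0.000529. It was 0.279 without the metformin and 0.116 without the healthy library, and 7.49e-06 among barcodes with Malat1 and mitochondrial RNA. Icam2 had a log2 fold of -0.53 (SE 0.49, edgeR adjusted p = 0.576), lower in 3 of 4 libraries.

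The other members were too sparse for the filter and were tested only without it, over 13593 genes, of which 18 (0.132%) were higher and 71 (0.522%) lower. There, Sele had a log2 fold of 3.18 (SE 0.69, edgeR adjusted p = 0.00171) and Vwf of 2.30 (SE 0.58, edgeR adjusted p = 0.0165), and Selp had an edgeR adjusted p of 0.00174. With DESeq2 the adjusted p was 0.476 for Sele, 0.0347 for Vwf and 0.0601 for Selp. Sele was at 0, 517, 1277 and 0 CPM in the Ackr1-positive and 60.2, 114, 4.99 and 0 CPM in the Ackr1-negative sums of disease plus metformin, disease, metformin and healthy gingiva. It was thus higher in 2 libraries and lower in 1, disease plus metformin, where it rested on 4 UMIs. Vwf was at 474, 653, 434 and 0 CPM in the positive and 45.1, 93, 89.8 and 24.9 CPM in the negative sums, higher in 3 of 4 libraries. Icam1 (log2 fold 1.69, edgeR adjusted p = 0.215) and Vcam1 (2.03, edgeR adjusted p = 0.176) did not pass. Over all libraries Icam1 was at 415 and 86.1 CPM and Vcam1 at 172 and 27.6 CPM in Ackr1-positive and Ackr1-negative barcodes.

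Esm1 had 0 UMIs in the 52 Ackr1-positive barcodes and 155 in the 194 Ackr1-negative ones. That is 8.80-fold lower with the floor of 3 UMIs set over the group, with an upper limit of -2.82 on the log2 ratio. The metformin library held 131 of the 155 UMIs. Without it the negative barcodes held 24 UMIs, and the log2 ratio at the floor was -0.27 with an upper limit of 0.14. A lower level in positive barcodes is thus not shown without the metformin library. Esm1 was at 15, 77.5, 654 and 66.5 CPM in the negative sums of disease plus metformin, disease, metformin and healthy gingiva (edgeR adjusted p = 0.00122 without the filter, DESeq2 adjusted p = 0.03). A count of 0 in the positive sums allowed up to 203, 81.7, 72.3 and 510 CPM in those libraries. The metformin level in negative barcodes was above that limit, and in the other 3 libraries a level as high as in the negative barcodes was not detectable in the positive ones.

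The 5 genes with the smallest adjusted p in each direction were as follows. Higher in Ackr1-positive sums were Lrg1, a secreted glycoprotein of venules (log2 fold 2.98, SE 0.36), Apoe, the lipid carrier (2.34, SE 0.40), Igfbp4, which binds insulin-like growth factors (2.85, SE 0.50), Ier3, an early response gene (2.02, SE 0.39), and Klk8, a serine protease (2.37, SE 0.46). Their edgeR adjusted p-values ran from 8.12e-05 to 0.0049. Klk8 was also the first of the top genes of cluster 11, a keratinocyte-like cluster, and the part of keratinocyte RNA in its value was not tested. Lower were Cxcl12, a chemokine (-5.51, SE 0.47), Igfbp7 (-3.04, SE 0.26), Col4a1, a basement membrane collagen (-3.05, SE 0.40), Rgcc, a capillary gene (-5.51, SE 0.77), and Rbp7, a retinol-binding protein (-4.47, SE 0.70). Each of these 10 genes moved the same way in 4 of 4 libraries. The filter on low counts can be met by the sums of 1 side alone. Lrg1, Apoe, Igfbp4, Ier3 and Klk8 entered through the Ackr1-positive sums, where they were high. Cxcl12, Igfbp7, Col4a1, Rgcc and Rbp7 entered through the negative sums, where they were high. The direction of these 10 genes over the libraries is thus a description and no independent support.

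By list, 6 of 7 tested capillary genes were lower in Ackr1-positive sums and none higher, and 2 of 5 venular genes were higher, Lrg1 and Il6st (log2 fold 1.68, edgeR adjusted p = 0.0233). The capillary genes were Rgcc, Gpihbp1, the fatty acid transporter Cd36, Cd300lg, the growth factor receptor Kdr and Sparcl1, and Gpihbp1 had 0 UMIs in Ackr1-positive barcodes against 240 in negative ones. All 3 tested sprouting genes, Kdr (also on the capillary list), Col4a1 and Col4a2, were lower. Of 2 arterial genes Cxcl12 was lower and Mgp higher, of 2 counter-receptor genes Podxl was lower, and of 9 transcription factors Tcf4 was lower. The 6 capillary genes, Col4a1, Col4a2, Cxcl12, Podxl and Tcf4 met the filter on low counts through the Ackr1-negative sums, where they were high. Lrg1 and Mgp met it through the positive sums, where they were high. The directions of all these genes are thus descriptions. None of 7 junction genes, 1 Weibel-Palade gene and 1 inflammatory response gene passed. The median log2 fold of all tested genes was -0.19.

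**Figure D4:**
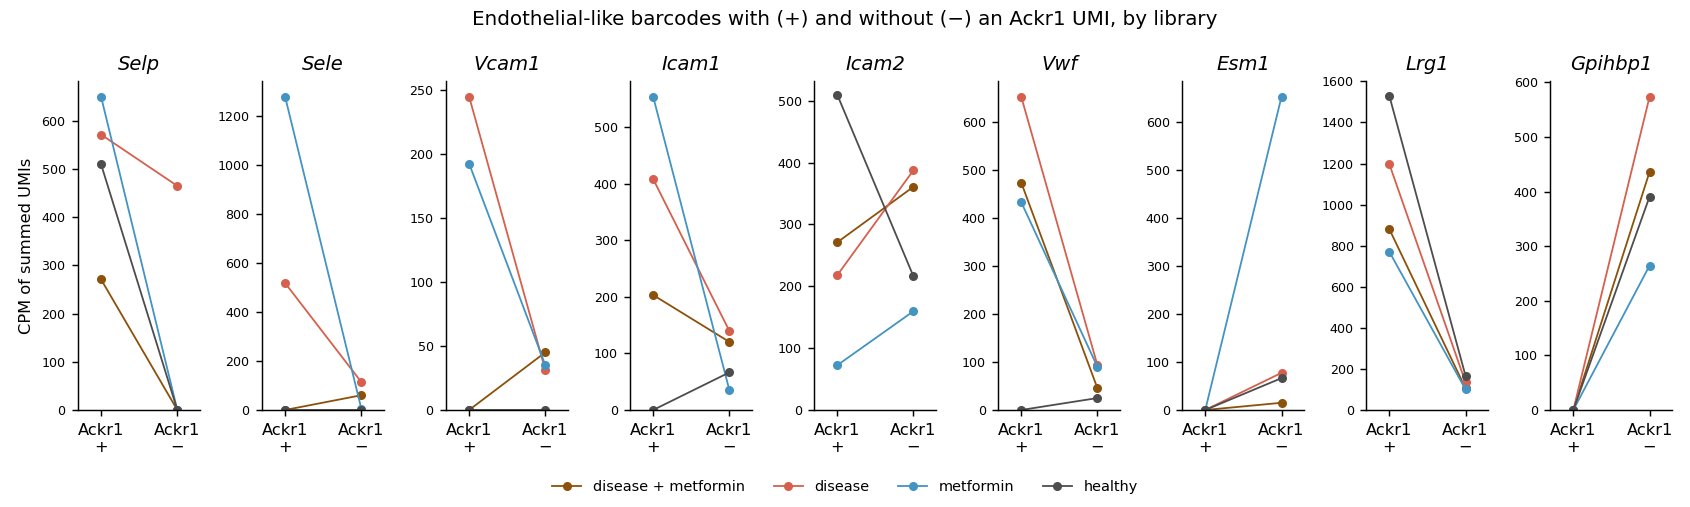
CPM of summed UMIs (vertical axis, a scale of its own in each panel) in Ackr1-positive and Ackr1-negative endothelial-like barcodes, with 1 line per library, for 7 members and for Lrg1 and Gpihbp1. Selp and Lrg1 were higher in the positive barcodes of 4 of 4 libraries, and Esm1 and Gpihbp1 were at 0 there in every library.

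The same genes were often found in the same cells. Of 23 endothelial-like cells with a Selp UMI, 13 also held Sele, against 10 of 223 without one. Ackr1 was found in 19 and Vwf in 14 of the 23, and Esm1 in 0 of them. Of 23 cells with Sele, 14 held Icam1, against 24 of 223 without. Of 23 cells with Esm1, 11 held Icam2 and 5 held Vwf, while 0 held Ackr1, Selp or Sele. Cells with several members are also deeper, so these counts are descriptions.

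When the 246 endothelial-like cells were clustered again by all variable genes, 8 sub-clusters resulted. The members were among the genes clustered, so their levels by sub-cluster are a description. A sub-cluster of 26 cells, with a median of 2378.5 UMIs, had the highest levels of Selp (1566 CPM), Sele (735), Icam1 (558) and Vwf (504), and held 449 CPM of Ackr1. Of its 115 Selp UMIs, 78 were the single disease barcode described above, and without it Selp was at 531 CPM. Another of 31 cells had the second highest Sele (411 CPM) and Vwf (292 CPM), with Ackr1 at 552 CPM. Without the barcode with most UMIs of the gene, Sele there was at 151 and Ackr1 at 300.2 CPM. It held 3 disease plus metformin, 20 disease, 8 metformin and 0 healthy cells. The highest Ackr1 level, 1835 CPM, lay in a sub-cluster of 41 cells with a median of 809 UMIs, of which 41.5% held a Malat1 UMI. Esm1 was highest, at 501 CPM, in a deep sub-cluster of 36 cells that also held the capillary gene Rgcc at 559 CPM. Metformin gave 16 of its 36 cells. A sub-cluster of 40 cells held Icam2 at 426 CPM and the capillary genes Rgcc (1342 CPM) and Gpihbp1 (1258 CPM), with Selp, Sele, Vcam1 and Ackr1 at 0. A sub-cluster of 15 cells, with 8 of 8 lymphatic markers raised, had Icam1 at 114 and Icam2 at 152 CPM and the other 6 members at 0.

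Of all Vwf UMIs, 90.7% were in gland-like cells, named from salivary gland markers. Per UMI sequenced the level was higher in endothelial-like cells, at 134 CPM over all libraries, than in gland-like cells, at 61.6 CPM. The cluster of 9 barcodes that raised the platelet markers had Vwf in 5 barcodes, at 196 CPM. Whether intronic reads were counted is not given in the sources used here, and the reads behind the gland UMIs were not analysed here. Gland-like cells held 452 Vwf UMIs in disease plus metformin, 141 in disease, 434 in metformin and 399 in healthy gingiva, at 62.9, 37.6, 62.7 and 75.4 CPM. Disease stood lowest and healthy highest. Keratinocyte-like cells had 3, 0.311, 1.26 and 1.06 CPM in those libraries. Vwf was 2.01-fold lower in disease than in healthy gland-like cells, and the log2 ratio of disease plus metformin over disease was 0.74 (0.47 to 1.02). The gland-like cells of disease were the deepest, with a median of 12385 UMIs, against 1633 in disease plus metformin, 1323.5 in metformin and 4493 in healthy gingiva. In endothelial-like cells Vwf was 7.67-fold higher in disease than in healthy gingiva, while over all kept cells it was lower in disease, at 14.7 CPM against 37.8 in healthy gingiva. Gland-like cells held 3749421 of the 12727031 UMIs of kept cells in disease and 5291345 of 10863807 in healthy gingiva.

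The lower disease level was also seen within the 2 gland-like clusters that held most Vwf. In cluster 0, with 445 cells, Vwf was at 61.9 CPM in disease plus metformin, 33.4 in disease, 75.7 in metformin and 85.9 in healthy gingiva, and disease was 2.57-fold lower than healthy gingiva, at median depths of 21407 and 20739 UMIs. In cluster 1, with 465 cells, it was at 68.2, 47.3, 72.6 and 96.8 CPM in those libraries, and the disease over healthy log2 ratio was -1.03 (-1.56 to -0.53). In cluster 0, 69.8% of 129 disease plus metformin, 43.1% of 116 disease, 67.4% of 95 metformin and 65.7% of 105 healthy cells held a Vwf UMI. No annotated gene overlaps Vwf, which lies at chr6:125546774-125686679 on GRCm38.

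**Figure D5:**
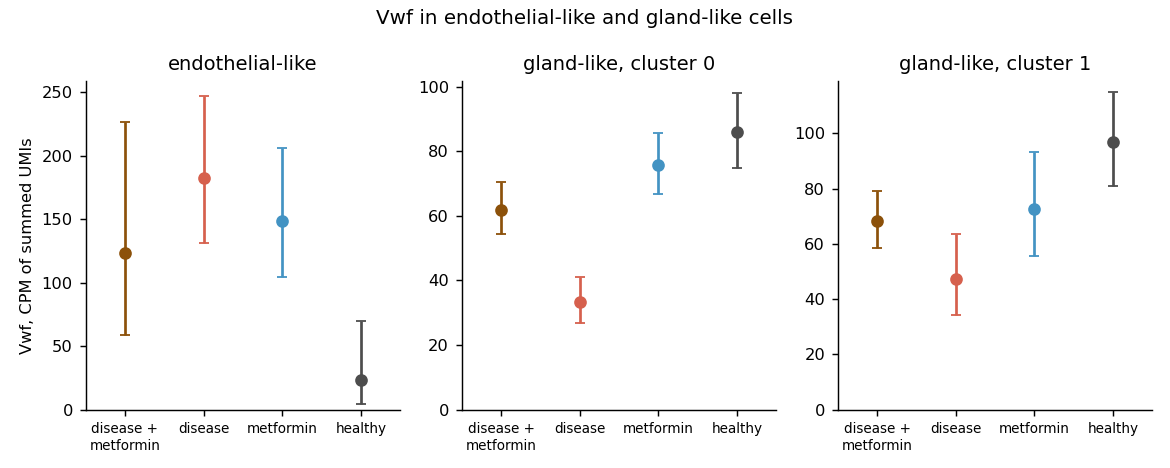
Vwf (vertical axis, CPM of summed UMIs, a scale of its own in each panel) by library in endothelial-like cells and in gland-like clusters 0 and 1, with exact Poisson 95% intervals. In endothelial-like cells disease stood at 182 and healthy at 23.8 CPM, while in both gland-like clusters disease was the lowest library.

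Of the 415 Icam1 UMIs outside the endothelium, 176 were in leukocyte-like cells, 78 in cluster 14, an unnamed cluster, 68 in gland-like, 46 in keratinocyte-like and 46 in fibroblast-like cells. In leukocyte-like cells it was at 108 CPM (63.8 to 170) in disease plus metformin, 280 (219 to 353) in disease, 358 (280 to 450) in metformin and 119 (64.9 to 199) in healthy gingiva. Disease and metformin were above the other libraries, although 32 of the 72 metformin UMIs came from 1 barcode. The log2 ratio was 1.24 (0.40 to 2.18) for disease over healthy, -1.38 (-2.21 to -0.62) for disease plus metformin over disease and 1.59 (0.75 to 2.53) for metformin over healthy. Fibroblast-like cells held Icam1 at 40.4, 47.5, 51.9 and 32.5 CPM in disease plus metformin, disease, metformin and healthy gingiva, with overlapping intervals.

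Vcam1 was found in 3 main places, with 71 of its 188 UMIs in fibroblast-like cells, 68 in the unnamed cluster 14 and 33 in endothelial-like cells. Over all libraries these are 72.3, 28.8 and 48.6 CPM. Fibroblast-like cells held 37.8% of its UMIs, with 19, 29, 22 and 1 UMIs in disease plus metformin, disease, metformin and healthy gingiva, at 256, 76.5, 54.3 and 8.12 CPM. In disease plus metformin, 9 of the 19 UMIs came from 1 barcode and only 3 cells held any. Cluster 14, which met no class definition and was led by Ltf, Sftpd and the contractile genes Cnn1 and Actg2, held 68 Vcam1 UMIs, of which 58 were from the disease library. Ackr1 was found in 14 of 135 fibroblast-like cells, at 16.3 CPM. Selp had 25 UMIs in gland-like cells, at 1.08 CPM, and 0 in the cluster of 9 barcodes that raised 7 of 7 platelet markers, although platelets carry P-selectin protein.

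The genes whose levels most resembled those of the members over 21 sums of class and library (at least 20 cells each) were as follows. Pearson's r of log2(CPM + 1) was 0.985 between Icam2 and Ctla2a, 0.974 between Ackr1 and Lims2, 0.945 between Vwf and Rapgef3, 0.925 between Esm1 and C1qtnf9, and 0.901 between Selp and Rasip1. Sele was nearest to Scgb3a1 (0.897), Vcam1 to Cfb, complement factor B (0.862), and Icam1 to Hacd4 (0.978). Next were Gimap4 (0.982) and Cd93 (0.978) for Icam2, Plvap (0.969) and Fgd5 (0.967) for Ackr1, Flt1 (0.893) and Erg (0.890) for Esm1, and Parp14 (0.962) and Fxyd5 (0.961) for Icam1. For Selp they were Cd300lg (0.898) and Ctla2a (0.892), for Sele Gm12002 (0.871) and Tnfsf10 (0.869), for Vcam1 Rtl8a (0.835) and Itgb3 (0.826), and for Vwf Tmem44 (0.939) and Wipf3 (0.937). These points share libraries and differ in depth, and the values were taken from 12729 genes, so they carry no p-value.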

How the data were processed

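The authors deposited unnormalized UMI counts for each gene in each barcode, per the file headers and values. They used bcl2fastq and Cell Ranger 7.0.1 with build mm10, per the submitters' processing notes. Further filters by the authors are not stated in the labels. The members, gene lists and tests were chosen with earlier results of these data known. The matrices held 32285 genes, and genes that share a symbol were summed.

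A barcode was kept if it had 200 or more genes and no more than 20% mitochondrial UMIs. Kept barcodes were clustered with scanpy 1.11.5 from 2000 variable genes without the 8 members, 30 principal components and 15 neighbours, by the Leiden method at resolution 1, and clusters were named from 17 marker lists. A name needed at least 3 markers raised 2-fold. No doublet caller was run, and barcodes with over 10000 UMIs or over 2% keratinocyte-marker UMIs were left out in an alternative. Cell names rebuilt in this way may differ from the study's.

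Summed counts were given as CPM. A gene was measured with at least 20 UMIs over 2 libraries. Ratios against 0 use a floor of 3 UMIs, and all intervals cover counting error only. Ackr1-positive and Ackr1-negative sums were tested with edgeR 4.0.16 (TMM, filterByExpr, library as block, Benjamini-Hochberg adjustment), after a test on simulated data. DESeq2 1.42.0 was an alternative. Free RNA was not removed. Alternatives covered the cell filter, clustering, scaling, weighting of cells, likely doublets, top barcodes, limits on fold and UMIs, and left-out libraries.

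The text names all 8 members, and for the 9 gene lists up to 4 measured genes per comparison with the interval bound farthest from 0. For the edgeR test it names the 5 genes with the smallest adjusted p in each direction, and for likeness the 3 highest correlations per member among genes with at least 100 UMIs. Promoters came from RefSeq, and matched 5 of the 8 members. Genes with overlapping antisense partners were counted as deposited.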

Additional observations from a re-analysis of the deposited data

Results flagged for a closer look

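Selp went opposite ways with metformin in endothelial-like cells of diseased and of healthy gingiva. Its log2 ratio was -3.29 for disease plus metformin over disease, 4 against 111 UMIs, and 2.23 for metformin over healthy, 27 against 3 UMIs. Single barcodes held 78 of the 111 and 18 of the 27 Selp UMIs. Without the top barcodes, Selp stayed lower in disease plus metformin than in disease, and was below the minimum for metformin over healthy. In barcodes with an Ackr1 UMI the 2 ratios were -1.08 (-3.08 to 0.49) and 0.35 (-1.35 to 2.72). The Sele ratios also had opposite signs. The log2 ratio of Sele was -1.86 for disease plus metformin over disease, 4 against 41 UMIs. It was 3.23 for metformin over healthy at the floor of 3 UMIs, 54 against 0 UMIs, with a lower limit of 2.88. Single barcodes held 12 of the 41 and 25 of the 54 UMIs. Each ratio sets 1 library against 1, so an effect of the drug cannot be told apart from the library. The difference between the ratios was not tested.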

How the results depend on the processing

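The number of members past 1.5-fold between libraries changed with few settings. For disease plus metformin over disease, leaving out the barcode with most UMIs of each gene gave 0 higher and 4 lower, a 2-fold limit gave 0 higher, and a minimum of 1 UMI or leaving out likely doublets gave 4 lower. A 2-fold limit gave 0 lower for metformin over healthy, and leaving out the top barcodes gave 1 higher for disease plus metformin over metformin. Ratios that changed sign were those of Icam2 for disease over healthy (-0.25 with cells weighted equally, -0.0406 without likely doublets), of Ackr1 with cells weighted equally (-0.16 for disease over healthy, -0.11 for metformin over healthy) and of Ackr1 for disease plus metformin over disease without the top barcodes (-0.34). The cause was not tested.

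In the test of Ackr1-positive over Ackr1-negative sums, 37 genes were higher and 40 lower. DESeq2 called 8 and 144, the test without a filter 18 and 71, barcodes thinned to 1000 UMIs 1 and 22, and the sub-cluster with the highest Ackr1 against the rest 63 and 184. A minimum of 2 Ackr1 UMIs called 10 higher, and barcodes with Malat1 and mitochondrial RNA, a setting added after seeing the data, 9 and 25. Leaving out each library in turn gave 6 to 42 higher and 18 to 47 lower genes, with the lowest counts without metformin. Selp passed the threshold without a filter (3.06), among barcodes with Malat1 and mitochondrial RNA (3.02) and without the disease plus metformin (3.12) or disease library (8.19). Without the library as a replicate block, 53 genes were higher and 60 lower. No paired analysis was possible for the comparisons between groups because each group is 1 library. Of the other recomputed values of comparisons, 117 kept their direction and size within the limits set, and so did 345 values of single genes.

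Depth limits all of these results. The Ackr1-positive barcodes of healthy gingiva held 5882 UMIs in 7 cells, so a count of 0 there allows a level of up to 3 UMIs, which is 510 CPM.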

Other observations

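Cluster 14, the unnamed cluster that held most Vcam1 UMIs of the disease library, also held 20 of the Esm1 UMIs found outside the endothelium. These were 14 UMIs in 3 cells of disease plus metformin, with 9 of them in 1 barcode, 2 in disease, 4 in metformin and 0 in healthy gingiva. The same cluster held 78 Icam1 UMIs in 42 of its 202 cells. Icam1 in gland-like cells was at 5.56 CPM in disease plus metformin, 1.6 in disease, 2.45 in metformin and 0.945 in healthy gingiva, from 40, 6, 17 and 5 UMIs, with a log2 ratio of 1.80 (0.55 to 3.33) for disease plus metformin over disease.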
